A study of Mus musculus with 24 samples.

Results

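The genes described here encode the vascular endothelial growth factors Vegfa, Vegfb, Vegfc and Pgf, their receptors Kdr, Flt1 and Flt4, the angiopoietins Angpt1 and Angpt2, and the angiopoietin receptor Tek. They were chosen by symbol, and each of the 10 symbols matched 1 Ensembl gene among the 41388 genes counted. The hearts came from male wild type Balb/c mice (substrain BALB/cAnNCrl) in which experimental autoimmune myocarditis (EAM) was raised by immunisation with a cardiac myosin peptide emulsified in adjuvant (SCFA), given with pertussis toxin (PTX) and boosted a week later. Control mice received adjuvant with PBS in place of the peptide, together with the same toxin, so both arms share adjuvant and toxin and neither is untreated. Bulk RNA from cardiac tissue was sequenced from 4 EAM and 4 control hearts at each of D10, D15 and D21 after the first immunisation, 24 hearts in all. The tissue was a myocardial sample rather than a sorted cell type, and EAM samples were picked by the study so that, as far as possible, inflammation was present. At D10, however, the study found neither raised leucocytes (CD45+ cells) in the heart nor raised cardiac troponin I in any EAM mouse.

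Vascular endothelial growth factors are secreted ligands that act mainly on endothelial cells. Vegfa signals through Kdr (VEGFR2), the main growth and permeability receptor, and also binds Flt1 (VEGFR1), whose tight binding and weak signalling let it hold ligand away from Kdr, while Vegfb and Pgf bind Flt1 but not Kdr, and Vegfc acts on Flt4 (VEGFR3), best known from lymphatic endothelium. In the angiopoietin system Angpt1, made largely by cells around the vessel, activates Tek (Tie2) and keeps endothelium quiet, and Angpt2, released by activated endothelium, competes for the same receptor and can loosen the vessel wall. Cardiomyocytes are a main source of Vegfa and Vegfb in the heart.

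Each library held between 15814863 and 24980864 counted reads. Ptprc, the pan-leucocyte marker CD45, was induced in EAM hearts at D15 (log2 fold change 3.98, FDR 1.43e-08) and D21 (2.58, FDR 0.00774), and its D10 value of 1.35 did not pass (FDR 0.328). All 10 endothelial markers (Pecam1, Cdh5 and others) were detected, and their summed level lay between 1013 and 1621 CPM over the 24 hearts. Atrial transcripts differed between libraries: the summed level of 5 atrial markers (Nppa, Myl7, Myl4, Sln and Bmp10) was 209 to 507 CPM in D10 control hearts, 583 to 2049 in D10 EAM, 240 to 2488 in D15 control, 567 to 1777 in D15 EAM, 1771 to 2790 in D21 control and 55.9 to 181 in D21 EAM. The library codes of the 4 D21 EAM hearts begin with SIN6175 and those of the other 20 with SIN6542, so that at D21 the code and EAM cannot be told apart.

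In the control hearts the ligands Vegfb and Vegfa were the most abundant of the 10 transcripts per length of exon. Across the 12 control hearts Vegfb averaged 214 ± 12.2 CPM per kilobase (CPM are read counts scaled to library size with TMM, here divided by exon length; SD over hearts) and Vegfa 75.1 ± 7.79. Neither range overlapped the next gene in the order. Kdr followed with 32.5 ± 5.18 CPM per kilobase and Tek with 26.3 ± 2.23, and their ranges overlapped. Angpt1 had 15.7 ± 4.73 CPM per kilobase and Flt1 11.8 ± 1.60, again with overlapping ranges. Vegfc (5.35 ± 0.472), Flt4 (4.88 ± 0.485), Pgf (3.41 ± 1.29) and Angpt2 (1.91 ± 0.228) formed the low end, and the range of each overlapped that of its neighbour. All 10 genes passed the filter on low counts in every comparison. The counts are per gene, so soluble and membrane forms of Flt1 or the splice forms of Vegfa were not separated.

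**Figure D1:**
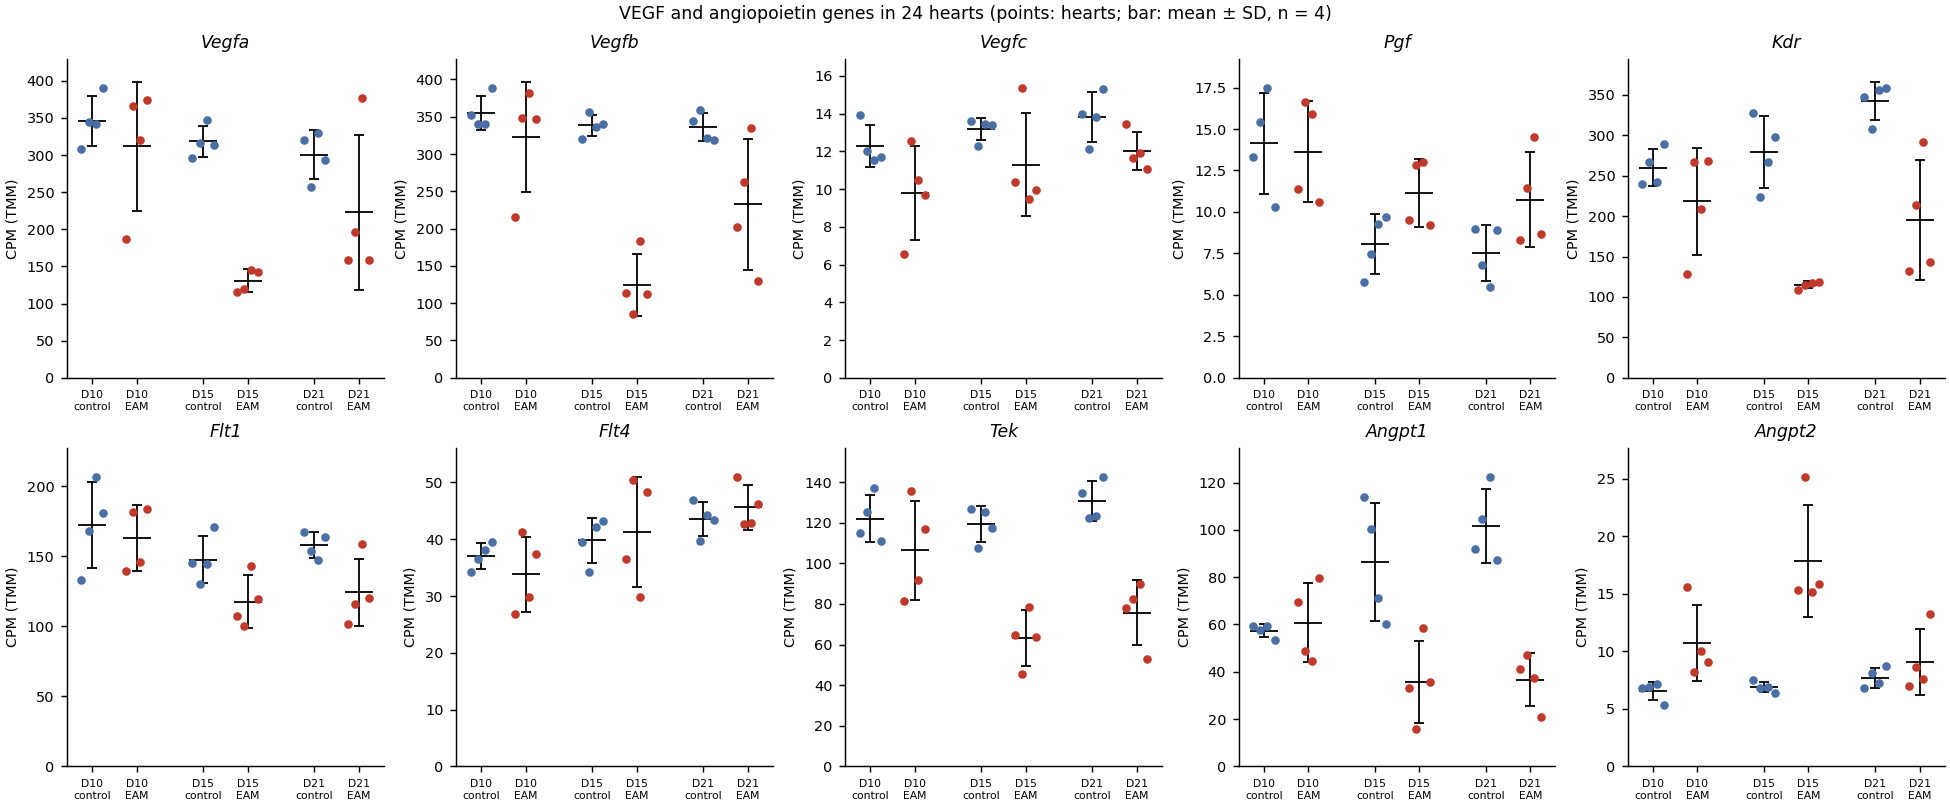
Level of each gene in each heart, in CPM (vertical axis, from 0), for control hearts (blue) and EAM hearts (red) at D10, D15 and D21, with 1 point per heart and the mean ± SD of 4. Vegfa, Vegfb, Kdr, Tek and Angpt1 of the 4 D15 EAM hearts lie below all 4 D15 controls, and Angpt2 above all of them.

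At D15 both of the abundant ligands were repressed, together with Kdr and Angpt1, and Angpt2 was induced. A call of induced or repressed here needs a change of 2-fold or more and an FDR below 0.01 in edgeR's quasi-likelihood test, 4 against 4 hearts. Repressed genes were 4 of the 10 members, against 12.9% of the 15693 genes tested at D15, and induced genes 1 of 10, against 18.1%. The median log2 fold change was -0.59 over the 10 genes and 0.02 over all genes tested. Without a fold limit, 5 of the 10 were lower at an FDR under 0.01 (31.1% of all genes) and 1 was higher (33.2%). All 4 EAM hearts lay below all 4 controls for 5 members, a pattern met by 35.9% of all genes at this time point, and above them for 1 member, against 34.6%.

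Vegfa had 115, 120, 145 and 143 CPM in the 4 D15 EAM hearts and 297, 317, 347 and 314 in the controls. The highest EAM heart was at less than the lowest control, with a log2 fold change of -1.25 ± 0.10 (SE, FDR 3.93e-06). Vegfb had 114, 85.7, 183 and 113 CPM in EAM and 321, 356, 336 and 341 in controls, again without overlap, and fell by 1.41 ± 0.20 on the log2 scale (FDR 0.000153). EAM heart 3 kept the most Vegfb of the 4, and EAM heart 2 the least. The same hearts had the highest and lowest summed level of 6 cardiomyocyte markers (Myh6, Actc1, Tnnt2, Tnni3, Ryr2 and Pln), at 17330 and 6744 CPM, where D15 controls had 24630 to 29070. Of these 6 markers 3 were repressed in the same comparison (median -1.35).

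Set against the cardiomyocyte markers of the same heart, Vegfa of EAM and control hearts overlapped at D15. On the scale of log2(CPM + 1) minus the mean of the 6 markers, Vegfa was -3.49 ± 0.37 (SD, n = 4) in EAM and -3.54 ± 0.10 in controls, a difference of 0.05 (exact two-sided permutation p = 0.8). With Tnnt2 alone as the reference the difference was -0.41, with exact p = 0.02857. Vegfb was -3.61 ± 0.06 in EAM and -3.45 ± 0.06 in controls, a difference of -0.16 without overlap (exact p = 0.02857, the smallest that 4 against 4 allows). With Tnnt2 alone the Vegfb difference was -0.62 (exact p = 0.02857). In bulk tissue fewer cells of a type and less RNA of a gene per cell cannot be told apart.

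At D10 neither ligand passed the test. Vegfa had 187, 367, 320 and 374 CPM in EAM hearts and 308, 345, 342 and 390 in controls, and Vegfb 215, 348, 381 and 348 against 352, 340, 341 and 389. EAM heart 1 was the lowest of its group for both, and without it the log2 fold changes were 0.02 for Vegfa and 0.0041 for Vegfb, instead of -0.16 (FDR 0.656) and -0.15 (FDR 0.614). That heart also had the most monocyte and macrophage RNA of the D10 libraries, 2895 CPM summed over 8 markers against 454 to 1370 in the other 7. The part of leucocyte RNA in its low ligand levels was not tested.

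At D21 the ligands again spread widely among EAM hearts. Vegfa had 158, 196, 377 and 159 CPM in EAM and 321, 257, 330 and 294 in controls, so that EAM heart 3 lay above every control and the other 3 below. The log2 fold change was -0.42 ± 0.27 (FDR 0.238), and -0.79 without EAM heart 3 (FDR 0.00203), still under 2-fold. Vegfb had 202, 263, 336 and 130 CPM in EAM and 345, 360, 322 and 319 in controls, with a log2 fold change of -0.52 ± 0.24 (FDR 0.120). With 1 heart left out in turn, the Vegfb value ranged from -0.7435 to -0.325. EAM heart 3 had the lowest monocyte and macrophage level of the 4, 1166 CPM against 2078 to 3958, and the highest cardiomyocyte level, 29810 CPM against 12470 to 22050. Relative to cardiomyocyte markers, Vegfb was lower by 0.19 without overlap (exact p = 0.02857) and Vegfa differed by -0.10 with overlap (exact p = 0.629). With Tnnt2 alone both were lower without overlap, Vegfb by 0.611 and Vegfa by 0.521 (exact p = 0.02857).

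The other ligands moved less. Pgf, a placental growth factor that also draws in monocytes, had 9.53, 12.8, 13.04 and 9.23 CPM in D15 EAM and 5.78, 7.44, 9.27 and 9.72 in controls. Control hearts 3 and 4 overlapped the EAM range, and the log2 fold change of 0.51 ± 0.19 did not pass (FDR 0.0318). At D21 Pgf had 8.33, 11.5, 14.5 and 8.67 CPM in EAM and 8.95, 6.77, 5.47 and 8.91 in controls, with a log2 fold change of 0.53 ± 0.22 (FDR 0.097), and at D10 -0.07 ± 0.20 (FDR 0.861). Vegfc stayed between 6.54 and 15.4 CPM in all 24 hearts, with log2 fold changes of -0.34 at D10 (FDR 0.366), -0.18 at D15 (FDR 0.295) and -0.18 at D21 (FDR 0.245).

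Of the VEGF receptors only Kdr was called, at D15. Kdr had 109, 115, 118 and 119 CPM in the 4 EAM hearts, the tightest group of any day, against 327, 224, 267 and 298 in controls. It fell by 1.24 ± 0.11 on the log2 scale (FDR 1.04e-05). Flt1 had 107, 101, 143 and 120 CPM in EAM and 145, 131, 144 and 171 in controls, with overlap and a log2 fold change of -0.29 ± 0.12 (FDR 0.052). Flt4 had 36.6, 50.4, 29.9 and 48.3 CPM in EAM and 39.5, 34.3, 42.1 and 43.3 in controls, a log2 fold change of 0.09 ± 0.16 (FDR 0.621). The 3 receptors of 1 family therefore lay between a fall of 1.24 and a difference near 0.

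At D21 Kdr had 132, 214, 292 and 143 CPM in EAM and 347, 308, 355 and 358 in controls. All EAM hearts lay below all controls, as they did for 18.7% of all genes, yet the log2 fold change of -0.80 ± 0.23 did not pass (FDR 0.0296). Without EAM heart 3, Kdr was repressed (-1.05, FDR 0.00218). Flt1 was at -0.33 ± 0.13 (FDR 0.0728) and, without that heart, at -0.47 (FDR 0.00466, under 2-fold), and Flt4 at 0.09 ± 0.10 (FDR 0.483). At D10 Kdr had 129, 267, 208 and 269 CPM in EAM and 240, 267, 243 and 289 in controls (log2 fold change -0.27 ± 0.21, FDR 0.497), with EAM heart 1 lowest as for the ligands, and without that heart it was -0.08 (FDR 0.782). Flt1 and Flt4 at D10 were at -0.09 (FDR 0.738) and -0.15 (FDR 0.561).

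For lymphatic endothelium, where Flt4 is a defining receptor, the marker genes went in both directions at D15. Of the 5 tested, Pdpn, also made by activated fibroblasts and macrophages, was induced (2.59), and Prox1, a lymphatic transcription factor also made by cardiomyocytes, was repressed (-1.41), with a median of -0.42. Lyve1 (0.27, FDR 0.202), Mmrn1 (-0.42) and Reln (-0.49) were not called, and Ccl21a was too low to test.

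Tek, the receptor of both angiopoietins, was lower in EAM hearts at D15 and D21 by less than 2-fold. It had 64.9, 45.3, 78.7 and 63.6 CPM in D15 EAM and 127, 107, 125 and 117 in controls, without overlap, with a log2 fold change of -0.88 ± 0.15 (FDR 0.000446). At D21 it had 77.8, 82.6, 89.8 and 52.9 CPM in EAM and 135, 122, 123 and 143 in controls, again without overlap, at -0.77 ± 0.15 (FDR 0.00876). Leaving out any 1 D21 control, or EAM heart 1 or 2, took that FDR above 0.01, to between 0.0172 and 0.0349, as did the replicate number as a block (0.0201). At D10 Tek was at -0.21 ± 0.16 (FDR 0.472), with overlapping groups.

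Angpt2 was the only member to be induced, and only at D15. It had 15.3, 25.2, 15.1 and 15.9 CPM in EAM hearts and 7.50, 6.79, 6.89 and 6.36 in controls. Every EAM heart had at least 15.1 CPM and no control more than 7.50, and the log2 fold change was 1.41 ± 0.18 (FDR 7.12e-05). EAM heart 2 was the highest, and without it the value was 1.23 (FDR 4e-06). At D10 Angpt2 already lay above all controls in every EAM heart, at 15.6, 8.16, 10.0 and 9.08 CPM against 6.80, 6.92, 7.14 and 5.36. Its D10 log2 fold change of 0.70 ± 0.21 had an unadjusted p of 0.00966 and did not pass (FDR 0.328). Without EAM heart 1, the one richest in leucocyte RNA, it was 0.46 (FDR 0.383). At D21 it had 6.95, 8.61, 7.55 and 13.3 CPM in EAM and 6.76, 8.12, 7.27 and 8.71 in controls, with overlap and a log2 fold change of 0.26 ± 0.22 (FDR 0.373). Without EAM heart 4, the highest, it was 0.012 (FDR 0.954).

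At D10 no gene of the whole table was called by edgeR's quasi-likelihood test (0.0% in each direction). An unadjusted p under 0.05 was found for 1458 of 15029 genes in the higher direction (9.7%) and 833 in the lower (5.54%), and for 1 member, Angpt2. DESeq2 called 48 genes induced and 4 repressed, the likelihood ratio test 45 and 2, and limma-voom 0 and 0. None of the 10 members was among the calls of any of these tools. Angpt2 was 1 of 10 members whose D10 EAM hearts all lay above the controls, which held for 4.41% of all genes, and for 0 members did they all lie below, against 3.75%.

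Angpt1 was repressed at D15 and at D21, and the D15 call was lost with the replicate number as a block (FDR 0.0199) and with total counts in place of TMM (FDR 0.0135). Its levels are given beside the atrial markers of the same hearts. At D15 it had 33.0, 15.98, 58.3 and 35.5 CPM in EAM and 114, 100, 71.4 and 60.3 in controls. The highest EAM heart lay just under the lowest control, with a log2 fold change of -1.24 ± 0.35 (FDR 0.00935). The call held without control heart 4 (-1.37) or EAM heart 3 (-1.55) and was lost without any 1 of the other 6, with values between -1.32 and -0.97. Control heart 4, the lowest control, had 240 CPM of summed atrial markers where the other D15 controls had 1870 to 2488. Of the EAM hearts, heart 3 had the most Angpt1 and the most atrial RNA (1777 CPM), and heart 2 the least of both (567 CPM). In the fit of all 24 hearts the D15 value was -1.28 (FDR 0.00067), and with an atrial score as a covariate it was -1.26 (FDR 0.000185).

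At D21 Angpt1 had 41.4, 47.1, 37.5 and 20.8 CPM in EAM hearts and 91.9, 105, 123 and 87.4 in controls. The groups lay far apart, with a log2 fold change of -1.45 ± 0.23 (FDR 0.00625). It was the single member called at D21, 1 of 10 against 1.16% of the 15266 genes tested, while 0 of 10 were induced against 4.13%. Without a fold limit 2 members, Angpt1 and Tek, were lower (3.1% of genes) and 0 higher (4.71%). The EAM range lay below that of the controls for 3 members, Kdr, Tek and Angpt1 (18.7% of genes), and above it for 0 (17.8%). Leaving out any 1 control, or EAM heart 1 or 2, lost the call (FDR 0.0121 to 0.0282). All 5 atrial markers were repressed in the same comparison, with a median log2 fold change of -7.41 and no overlap in their summed level. With the atrial score as a covariate Angpt1 was at 0.10 ± 0.57 (FDR 0.986), and since that score separates the D21 groups completely, EAM and the level of atrial markers cannot be told apart for Angpt1 at D21. Angpt1 of D10 hearts lay at 69.7, 48.9, 44.7 and 79.7 CPM in EAM and 59.2, 57.6, 59.4 and 53.4 in controls (log2 fold change 0.07 ± 0.18, FDR 0.836). The 2 D10 EAM hearts with the most Angpt1, hearts 1 and 4, were also those with the most atrial RNA. D10 EAM heart 2 had 1415 CPM of atrial markers and less Angpt1 than every D10 control, and D21 EAM heart 2 had the least atrial RNA (55.9 CPM) and the most Angpt1 of its group. The exons of Angpt1 share 737 bases with Gm17473 on the opposite strand, which had 371 reads in the 24 libraries against 29739 for Angpt1, and the strand setting of the counting was not given in the sources used here.

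**Figure D2:**
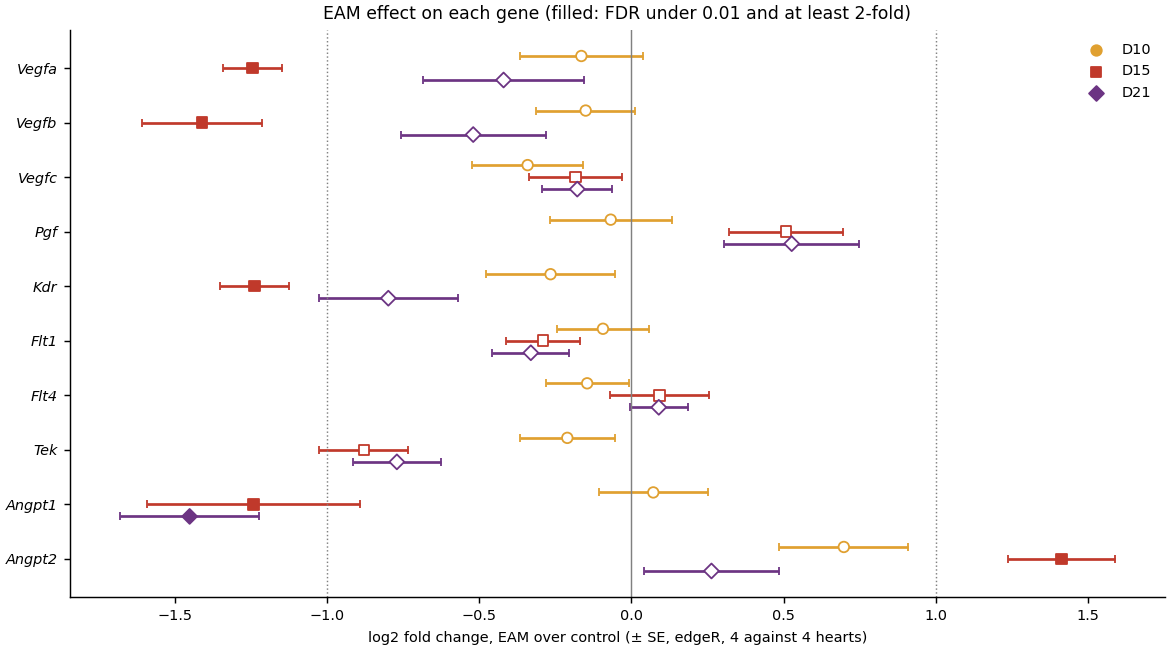
Log2 fold change of EAM over control hearts for each gene at D10 (circles), D15 (squares) and D21 (diamonds), with standard errors from edgeR and dotted lines at 2-fold. Filled symbols, which pass an FDR under 0.01 and 2-fold, are Vegfa, Vegfb, Kdr, Angpt1 and Angpt2 at D15 and Angpt1 at D21.

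Whether an EAM effect differed between days was tested as a contrast in a fit of all 24 hearts. From D10 to D15 the effect on Vegfa moved by -1.13 ± 0.32 (FDR 0.00781) and that on Vegfb by -1.31 ± 0.32 (FDR 0.00388), both called. These were 2 of 10 members, against 7.35% of 16318 genes called lower, and 0 of 10 were called higher, against 5.38%. Kdr (-1.02, FDR 0.0102) and Angpt1 (-1.36, FDR 0.0128) fell just short, and Angpt2 was at 0.67 (FDR 0.0726). The Vegfa call was lost without any 1 of 13 of the 16 hearts of those days, where the FDR lay between 0.0112 and 0.0191. With the atrial covariate the Vegfa (-0.93, FDR 0.0708) and Vegfb (-1.15, FDR 0.0347) calls were lost, as was every call of the whole table. The atrial score separates D10 EAM hearts (6.21 to 8.48) from D10 controls (4.42 to 5.68). EAM and atrial level at D10 therefore cannot be told apart in that fit. From D15 to D21 the effect on Angpt2 moved by -1.14 ± 0.30 (FDR 0.00908), 1 of 10 members against 0.919% of genes called lower. No member was called higher (2.74% of genes), although Vegfa (0.85, FDR 0.0488) and Vegfb (0.92, FDR 0.0381) lay in that direction. The Angpt2 call held only without D15 EAM heart 3 or D21 EAM heart 4 among the 16 hearts left out in turn, and the values over all 16 ranged from -1.38 to -0.95. It was also lost with the replicate number as a block (FDR 0.012).

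Ratios within a heart do not depend on how libraries are scaled. The ratio of Angpt2 to Angpt1, per exon length, was 0.655, 2.22, 0.366 and 0.631 in the 4 D15 EAM hearts and 0.0932, 0.0959, 0.137 and 0.150 in controls. In EAM heart 2 the Tek antagonist thus exceeded the agonist, and in no other heart of the 24 did it do so. The mean log2 ratio was -0.39 ± 1.099 (SD, n = 4) in EAM and -3.11 ± 0.35 in controls, 6.55-fold higher, with an exact two-sided permutation p of 0.02857, the smallest possible with 4 against 4. Every D15 EAM heart lay above all controls for Angpt2 and below them for Angpt1. The separation of the ratio and its p were fixed by those levels and add no support to the calls. At D21 the ratio was 0.238, 0.258, 0.285 and 0.899 in EAM and 0.104, 0.110, 0.0839 and 0.141 in controls, 3.28-fold higher (exact p = 0.02857). There the log2 fold change was -1.45 for Angpt1 and 0.26 for Angpt2, and the atrial markers of the same hearts are given above. At D10 it was 1.55-fold higher with overlap (exact p = 0.114).

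The ratio of Flt1 to Kdr was 0.658, 0.584, 0.813 and 0.675 in D15 EAM hearts and 0.297, 0.391, 0.361 and 0.383 in controls, 1.90-fold higher without overlap (exact p = 0.02857). At D21 it was 1.43-fold higher (0.517, 0.364, 0.363 and 0.563 in EAM, from 0.277 to 0.334 in controls, exact p = 0.02857) and at D10 1.18-fold (exact p = 0.343). For the ligands that bind Flt1 but not Kdr, the ratio of Pgf to Vegfb was 3.95-fold higher at D15 and 2.17-fold higher at D21. Both were without overlap (exact p = 0.02857). Pgf itself was not called at any day, and Vegfb was repressed at D15. Vegfb stayed by far the more abundant, with a geometric mean ratio of Pgf to Vegfb of 0.0511 in D15 EAM hearts. Vegfa and Vegfb kept their ratio within the spread of the hearts at all 3 days, at 0.980-fold (D10), 1.16-fold (D15) and 1.06-fold (D21), with exact p between 0.343 and 0.914. These are 12 tests, and no p below 0.02857 can arise.

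**Figure D3:**
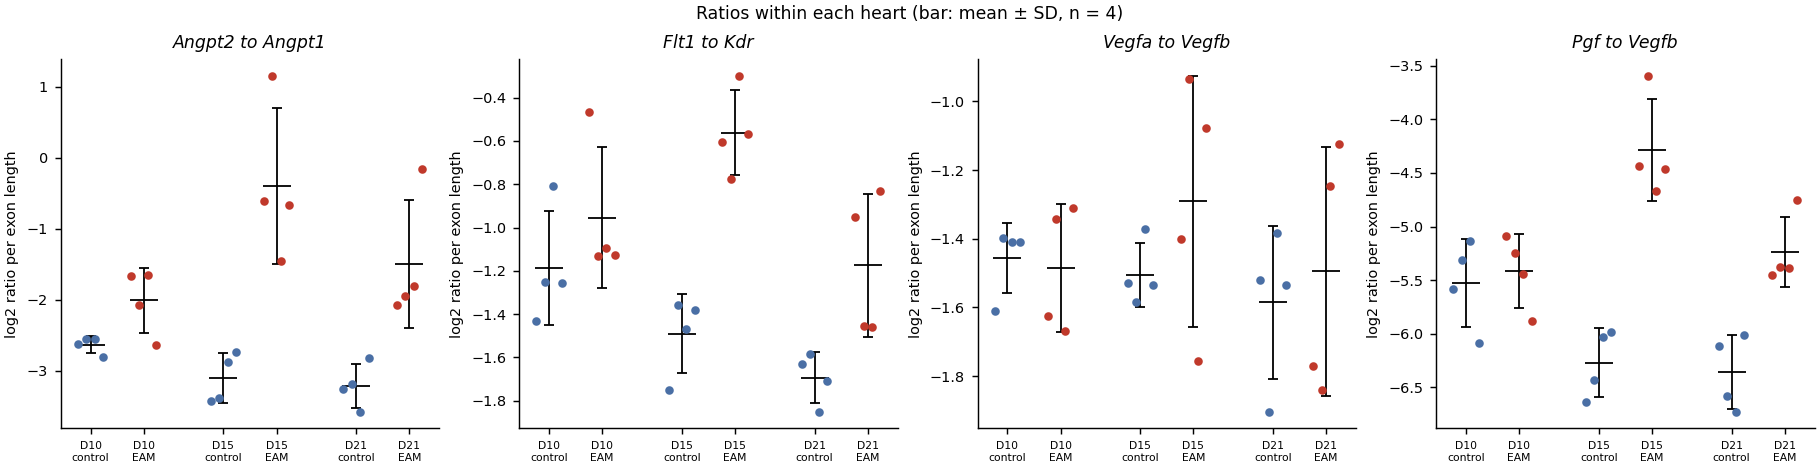
Log2 ratio of 2 transcripts per exon length in each heart (vertical axis), for control (blue) and EAM (red) hearts at 3 days, with the mean ± SD of 4. Angpt2 to Angpt1, Flt1 to Kdr and Pgf to Vegfb are higher in all 4 EAM hearts than in all 4 controls at D15 and D21, and Vegfa to Vegfb overlaps at each day.

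The endothelial receptors were also read against endothelial markers of the same heart, and the result depended in part on the marker used. None of the 10 endothelial markers was called at D15 (median -0.36), yet their summed level of 1013 to 1093 CPM lay below that of every D15 control (1218 to 1513). Of a further list of 10 markers of capillary, arterial or venous endothelium, Gpihbp1 (-1.36) and Fabp4 (-1.001), both of capillaries, were repressed at D15 and Ackr1 (2.52), of venules, was induced. The other 7 were not called and the median was -0.15. The list's summed level was 423 to 581 CPM in D15 EAM and 692 to 802 in controls, without overlap, but its mean score on the log2(CPM + 1) scale overlapped (4.64 to 5.0 in EAM and 4.82 to 5.03 in controls). The part of these endothelial classes in the Kdr and Tek values was not tested. Relative to the mean of the 10 general endothelial markers in the same heart, Kdr was lower by 0.88 at D15 (0.56 ± 0.05 in EAM and 1.44 ± 0.15 in controls, on a log2(CPM + 1) scale) and by 0.62 at D21, and Tek by 0.55 and 0.54, all without overlap (exact p = 0.02857). With Cdh5 alone as reference, Kdr at D21 differed by -0.22 (exact p = 0.0857) and Tek by -0.21 at D15 (exact p = 0.457) and -0.14 at D21 (exact p = 0.4). Angpt2 was higher relative to endothelial markers by 0.68 at D10 and 1.60 at D15 without overlap (exact p = 0.02857), and by 0.44 at D21 with overlap (exact p = 0.0857). With 1 heart left out in turn, these Angpt2 values ranged from 0.44 to 0.84 at D10, 1.459 to 1.675 at D15 and 0.18 to 0.56 at D21. Flt1 was within 0.10 of its control mean at each day, with exact p between 0.486 and 0.971, but with Cdh5 alone it differed by 0.26 at D10, 0.39 at D15 and 0.30 at D21 (exact p = 0.171, 0.0857 and 0.143). Pgf was higher by 0.81 at D15 and 0.72 at D21, without overlap at either day. Angpt1 was lower by 1.23 at D21 without overlap and differed by -0.97 at D15 with overlap (exact p = 0.0857). These comparisons were among 30 such tests.

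Mural cells, the pericytes and smooth muscle cells of the vessel wall, are a source of Angpt1. Of 8 mural markers 3 were repressed at D15, Rgs5 (-1.68), Abcc9 (-1.60) and Kcnj8 (-1.24), with a median of -0.69. Pdgfrb, the defining pericyte receptor, was at 0.32 (FDR 0.05) and Cspg4 at 0.60 (FDR 0.0249). The summed level of the 8 was 569 to 1018 CPM in D15 EAM and 1589 to 1954 in controls. Rgs5 and Abcc9 held 312267 and 208212 reads over all hearts and the other markers 13397 to 46166 each, so the sum mostly follows Rgs5 and Abcc9. The mean log2(CPM + 1), which weighs the 8 equally, was 5.68 to 6.23 in D15 EAM and 6.52 to 6.76 in controls. At D21 0 of the 8 were called, with a median of -0.68, and the summed level was 746 to 1376 CPM in EAM and 1900 to 2007 in controls, without overlap at either day. The part of these cells in the Angpt1 values was not tested.

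**Figure D4:**
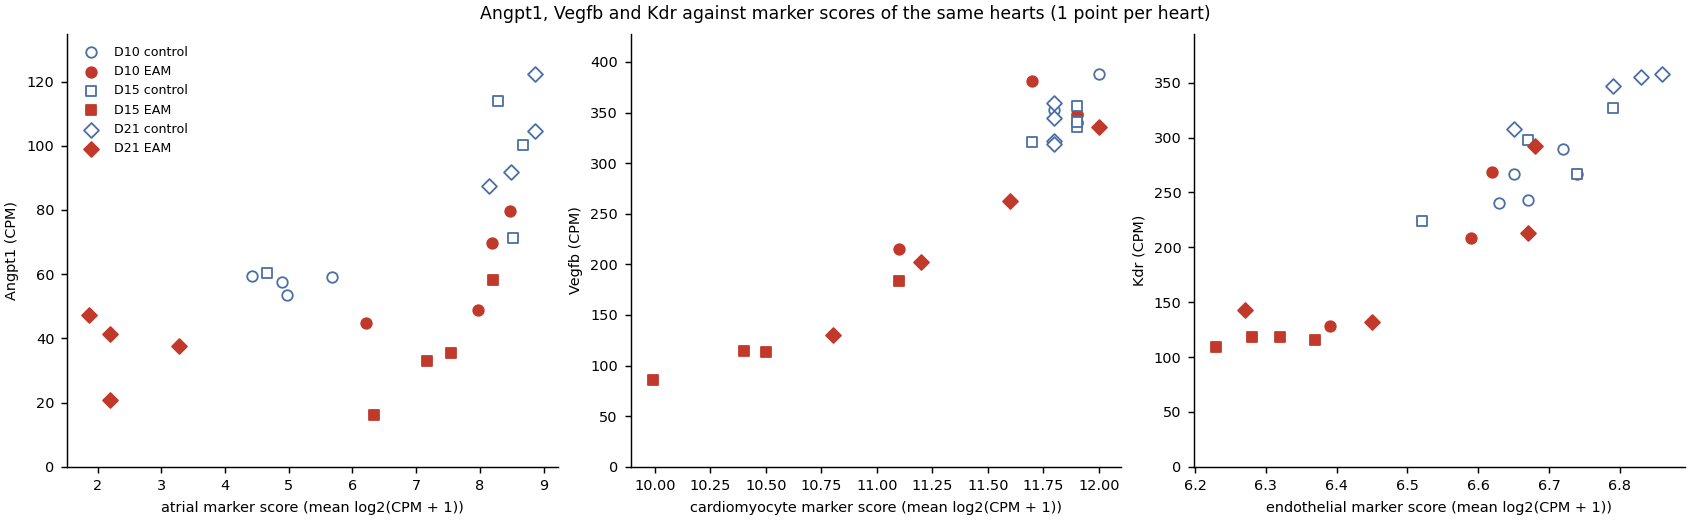
Level in CPM (vertical axis) of Angpt1, Vegfb and Kdr against the score of atrial, cardiomyocyte and endothelial markers of the same heart (horizontal axis, mean log2(CPM + 1) over the list), with 1 point per heart, open for control and filled for EAM. The 4 D21 EAM hearts have atrial scores of 1.87 to 3.27, below all other hearts, and the D15 EAM hearts have the lowest cardiomyocyte scores, with 1 exception at 11.1.

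Vegfa, Vegfb and Kdr, which fell together at D15, have upstream sequences in the RefSeq table of promoters (GRCm38.p6), and those that lie before the annotated gene are shown because the hypoxia pathway, a known regulator of Vegfa, was among the lists examined. Each line runs 5′ to 3′ on the coding strand, from 250 to 11 bases before the start site, and capitals mark ACGTG or GCGTG, the core letters bound by hypoxia-inducible factors, searched on both strands (so that CACGT and CACGC also count, and CACGTG counts for both).
Vegfa, chr17:46032388-46032627, minus strand: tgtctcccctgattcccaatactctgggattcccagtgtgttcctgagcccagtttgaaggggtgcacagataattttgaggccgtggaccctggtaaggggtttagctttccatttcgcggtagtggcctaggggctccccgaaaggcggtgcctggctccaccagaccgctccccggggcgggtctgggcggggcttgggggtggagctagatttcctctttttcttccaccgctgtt
Vegfb, chr19:6987662-6987901, minus strand: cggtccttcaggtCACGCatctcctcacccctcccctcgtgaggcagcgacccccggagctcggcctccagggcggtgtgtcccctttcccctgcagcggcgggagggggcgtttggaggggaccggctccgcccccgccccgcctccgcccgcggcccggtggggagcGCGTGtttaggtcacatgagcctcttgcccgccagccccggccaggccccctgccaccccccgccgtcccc
Kdr, chr5:75978466-75978705, minus strand: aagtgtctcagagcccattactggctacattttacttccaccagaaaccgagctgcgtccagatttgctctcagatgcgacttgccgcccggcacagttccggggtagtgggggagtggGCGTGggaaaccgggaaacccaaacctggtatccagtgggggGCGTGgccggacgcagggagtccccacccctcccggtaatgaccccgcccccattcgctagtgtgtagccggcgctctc
Vegfb and Kdr each held 2 matches, beginning 237 and 81 bases before the start for Vegfb and 131 and 89 for Kdr, and the Vegfa stretch shown held none. A second RefSeq entry of Vegfa, chr17:46025174-46025413, lies inside the gene and held 2 matches, beginning 218 and 211 bases before its start, both in a coding exon of GENCODE M21. Of the 32851 promoter entries in the table, 37.4% held at least 1 match in the same stretch. Among the 10 entries for members, 5 did. Entries were found for 8 members and not for Angpt1 or Angpt2. A match is a description of the letters and not of a bound site. Bases further upstream were not searched, so the stretch shown cannot tell whether Vegfa has a match elsewhere.

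Genes of the hypoxia pathway went in both directions. Of 16 tested at D15, 3 were induced and 2 repressed, with a median of 0.12. Over all genes 18.1% were induced and 12.9% repressed at that day, and 4.13% and 1.16% at D21. The counts of this list and of the 3 that follow are to be read against the shares of their day. Hif1a, the oxygen-sensitive subunit that is also raised in activated leucocytes, had a log2 fold change of 1.99 ± 0.10 (FDR 1.93e-07), Slc2a1, the glucose transporter GLUT1, 2.73, and Car9, a carbonic anhydrase, 2.07. Egln1, the prolyl hydroxylase PHD2, was at -1.29 and Pdk1, a kinase that restrains pyruvate dehydrogenase, at -1.15. Epas1, the subunit HIF-2α prominent in endothelium, was at -0.52 ± 0.11 (FDR 0.00222, under 2-fold). At D21 none was called, with Hif1a at 1.102 (FDR 0.0298) and Epas1 at -0.63 (FDR 0.0243). The monocyte and macrophage markers, all 8 of which were induced at D15 with a median of 3.56, moved with Hif1a, and their part in it was not tested.

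Among 20 other ligands, co-receptors and inhibitors, 5 were induced and 0 repressed at D15. These were Angptl4 (3.18), a lipase inhibitor also active on vessels, Thbs1 (2.78), a matrix inhibitor of angiogenesis, Angpt4 (1.92, at 0.549 to 2.08 CPM in EAM hearts), Svep1 (1.90), a matrix protein needed in lymphatic remodelling, and Vegfd (1.69), a second Flt4 ligand. Vegfd had 12.5 to 21.2 CPM in D15 EAM hearts and 4.48 to 6.58 in controls, and was the single gene of this list called at D21 as well (1.79, FDR 0.00473). The summed fibroblast markers also lay higher in D15 EAM hearts, at 3150 to 6491 CPM summed over 6 markers against 1263 to 1468 in controls, and at 2261 to 5292 against 1344 to 1683 at D21. Col1a1 (4.45) and Pdgfrl (2.45) were the 2 of 6 induced at D15, and both were also induced at D21, while Dcn (0.17, FDR 0.196) and Tcf21 (-0.36, FDR 0.131) were not called at D15. Their part in the values of this list was not tested. The co-receptor Nrp1 was lower at D15 by less than 2-fold (-0.59 ± 0.10, FDR 0.000401), as were Tie1 (-0.71 ± 0.10, FDR 0.000198), the partner of Tek, and Ptprb (-0.83 ± 0.15, FDR 0.000644), the phosphatase that switches Tek off. Nrp2 was at 0.18 ± 0.12 (FDR 0.207). At D21 Nrp1 (-0.56), Nrp2 (-0.38), Tie1 (-0.46) and Ptprb (-0.67) had FDRs between 0.0114 and 0.0774 and did not pass.

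Of 27 genes that act downstream of the VEGF and TIE receptors, 5 were induced and 1 repressed at D15, with a median of 0.19. The highest were Sh2d2a (4.43), an adaptor best known from T cells, Dok2 (3.16), an adaptor of Tek also made by leucocytes, and Sphk1 (2.95), a sphingosine kinase. Src (2.88) and Prkcb (2.57) were also induced, and Cav1, the caveolar coat protein of endothelium, was repressed (-1.05). All 5 T cell markers were induced at the same day, with a median of 4.47, and their part in these values was not tested. At D21 Sh2d2a (3.11) and Src (1.99) were induced and none of the 27 was repressed.

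Of 18 tip cell and sprouting genes 2 were induced and 3 repressed at D15, with a median of -0.59. Esm1, a tip cell gene that responds to Vegfa, was repressed (-1.57 ± 0.19, FDR 7.06e-05), with Apln (-1.23), the tip cell ligand apelin, and Hey1 (-1.17), a Notch target. Dll4, the Notch ligand of tip cells, was lower by less than 2-fold (-0.79 ± 0.13, FDR 0.000373). Plvap (1.54), a protein of fenestrated and activated endothelium, and Cxcr4 (1.43), a chemokine receptor of tip cells and leucocytes, were induced. At D21 none was called, with Esm1 at -0.90 (FDR 0.091) and Dll4 at -0.44 (FDR 0.121), and at D10 Esm1 was at -0.62 (FDR 0.334) and Dll4 at -0.27 (FDR 0.411). At D10 none of the genes of the 4 lists was called.

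In the control hearts, which received adjuvant and toxin without peptide, no member was called between days, against 0.0% of 15311 genes called higher and 0.0718% called lower from D10 to D15, and 0.607% and 0.353% from D10 to D21. Angpt1 was higher at D21 than at D10 by 0.83 ± 0.17 on the log2 scale (FDR 0.00909, under 2-fold, 1 of 10 members against 1.61% of genes higher without a fold limit, and 0 against 0.986% lower), at 87.4 to 123 CPM against 53.4 to 59.4. Atrial markers differed between those controls in the same direction, and with the atrial covariate Angpt1 was at 0.22 ± 0.23 (FDR 0.845). The atrial score was 4.42 to 5.68 in D10 controls and 8.14 to 8.87 in D21 controls, without overlap. Day and atrial level therefore cannot be told apart for Angpt1 in these controls. Pgf was at -0.91 ± 0.20 (FDR 0.0133), from 10.3 to 17.5 CPM at D10 and 5.47 to 8.95 at D21, and at -0.80 at D15 (FDR 0.0573). Summed platelet markers also lay higher in D10 controls, at 54.0 to 142 CPM, than in D21 controls, at 9.85 to 20.9, and their part in the Pgf values was not tested. Kdr was at 0.40 ± 0.10 at D21 (FDR 0.0249), so the D21 comparison of Kdr is made against the highest control level of the 3 days, 342 ± 23.2 CPM (SD, n = 4) against 260 ± 23.1 at D10.

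Which transcripts ran most like each member over the 24 hearts is given as a description, since the hearts share their cell makeup and day. By Pearson correlation of log2(CPM + 1), Vegfb ran closest to Ecsit (0.993), Auh (0.993) and Pfkm (0.992), and Vegfa to Coro6 (0.976), Kank3 (0.971) and Mlxipl (0.965). Kdr ran closest to Aplp2 (0.968), Gdpd5 (0.966) and Sparcl1 (0.966), Tek to Sun1 (0.977), Lrp5 (0.969) and Neo1 (0.968), and Flt1 to Ubr2 (0.932), Pcnt (0.917) and Alkbh5 (0.916). Angpt1 ran closest to Gm26794 (0.949) and to Kcnj5 (0.949) and Kcnj3 (0.947), which encode a potassium channel of atrial muscle, and Angpt2 to Piga (0.948), Fst (0.945) and Fbxl5 (0.941). The remaining members had weaker neighbours: Pgf with Ggt5 (0.902), Slc43a3 (0.837) and Glul (0.834), Flt4 with Itga11 (0.838), Thbs2 (0.806) and Mrgpre (0.779), and Vegfc with Gas1 (0.831), Aplnr (0.81) and Islr (0.798).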

How the data were processed

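Cardiac RNA of 24 hearts was sequenced with a directional mRNA kit. The authors aligned read pairs with HISAT2 2.0.4 to GRCm38, removed duplicates with Picard, and deposited a featureCounts read count per Ensembl gene, without normalization. The 92 spike-in features, with 0 reads, were left out. Totals ran from 15814863 to 24980864 reads, and 3 reads, the floor of a count of 0, were worth 0.120 to 0.190 CPM (counting error only).

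Tests were run with edgeR 4.0.16 (default quasi-likelihood fit, TMM normalization), DESeq2 1.42.0 and limma 3.58.1 under R 4.3.3, and tables and plots made with Python 3.11.15, pandas 2.3.3, numpy 2.4.6 and matplotlib 3.10.9. A gene entered a fit where 4 or more of its samples had 10 or more reads, and the Benjamini-Hochberg FDR was taken over all of them. CPM used TMM over all 24 libraries, and exon lengths came from GENCODE M21 on GRCm38, a later annotation than that of the counts. Ratios (0.5 added to each count) and levels relative to markers (log2(CPM + 1)) were compared by exact two-sided permutation of 4 against 4.

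Groups, replicate numbers and days came from the sample labels, and heart n is replicate n. The labels do not say that samples of a group are separate animals, which the study's methods state of the mice. Replicate numbers were not taken as pairs, since neither the labels nor every correlation met the bar of 0.1: same-numbered EAM and control deviations correlated between -0.083 and 0.368 at D10, between -0.095 and 0.035 at D15 and between 0.097 and 0.303 at D21, where 3 of 4 lay above 0.1. The fits were tested on simulated data.

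The members and lists were chosen with earlier results of these data known. Named were all members, the called genes of each list at D15 with the 3 highest and 3 lowest log2 fold changes, Nrp1, Nrp2, Tie1, Hif1a, Epas1, Dll4, Esm1, Ptprb and Ptprc, and for each member the 3 genes of highest correlation among those with a mean of at least 1 CPM. Src and Prkcb, the list genes called at D21, and marker genes other than those of the rule were named after their values were seen. Alternatives were other tests, limits, normalizations, filters, control sets, the replicate block and leaving out each library. Those added after seeing the data were a newer form of the quasi-likelihood test, an atrial score (mean log2(CPM + 1) of 5 markers) as a covariate, and cardiomyocyte markers as a reference.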

Additional observations from a re-analysis of the deposited data

Results flagged for a closer look

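In 6 of 84 groups of 4 hearts examined, 1 heart stood apart by Dixon's criterion at its 95% critical value. Chance alone marks about 1 group in 20. D15 EAM heart 2 stood apart for Vegfc (15.35 CPM against 9.46 to 10.4 in the other 3) and for Angpt2 (25.17 CPM against 15.1 to 15.9), and it had the lowest summed cardiomyocyte markers of the 24 hearts (6744 CPM). D21 EAM heart 4 stood apart for the log2 ratio of Angpt2 to Angpt1 (-0.154, against -2.07 to -1.81) and of Pgf to Vegfb (-4.755, against -5.45 to -5.37). D10 EAM heart 1 stood apart for the log2 ratio of Flt1 to Kdr (-0.466, against -1.13 to -1.09), and D10 control heart 1 for that of Vegfa to Vegfb (-1.609, against -1.41 to -1.40).

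The effect of EAM differed between days by the test of the difference itself for 3 results. The effect on Vegfa moved by -1.13 on the log2 scale from D10 to D15 (FDR 0.00781, edgeR) and that on Vegfb by -1.31 (FDR 0.00388). The effect on Angpt2 moved by -1.14 from D15 to D21 (FDR 0.00908), which was not called with the replicate number as a block (FDR 0.012). The Vegfa and Angpt2 calls were also lost when most single hearts were left out, as given above. All D21 EAM hearts carry a library code of their own, so time and code cannot be told apart in the change from D15 to D21.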

How the results depend on the processing

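Vegfa, Vegfb, Kdr and Angpt2 at D15 were called under every test, normalization and filter and with each heart left out, except in the test against a 2-fold change, which called 0 members higher and 0 lower at D15, 0 lower at D21 and 0 lower in both changes between days. Without a fold limit 2 members were lower at D21 and 1 was higher in D21 than in D10 controls. Members called lower in the change from D10 to D15 numbered 4 with the likelihood ratio test (1427 of 16318 genes), 4 at an FDR of 0.05 (1653 genes), 1 with limma-voom (1196 genes), 1 with total counts (831 genes, with 1017 higher) and 0 with the atrial covariate (0 genes), against 2 (1199 genes) as reported. In the change from D15 to D21 it was 0 with limma-voom (150 genes), without the filter (127 of 27304 genes) and with the atrial covariate (0 genes), against 1 (150 genes) as reported. Angpt1 at D15 was not called with total counts (FDR 0.0135). Total counts moved the D15 median of all genes from 0.02 to 0.17. With each heart left out in turn, members called lower ranged from 1 to 3 (D10 to D15), 0 to 1 (D15 to D21, where 0 to 1 were higher), 0 to 2 (D21) and 0 to 1 (controls, D21 against D10).

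With the replicate number as a block, Angpt2 was no longer called in the change from D15 to D21 (0 members lower) and Angpt1 at D15 was lost (FDR 0.0199), and no other member call changed. Tek at D21 then had an FDR of 0.0201. With the pairing, 4 sign changes of a ratio cannot give an exact p under 0.05. Same-numbered hearts correlated best with each other in 2 of 4 cases at D10, 0 at D15 and 3 at D21, a hint from the data only.

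Directions that turned belonged to uncalled values, apart from Angpt1 at D21. With the atrial covariate these were, at D10, Pgf 0.18, Flt4 0.0202 and Angpt1 -0.63, at D21 Vegfa 0.0003, Pgf -0.034, Flt4 -0.27 and Angpt1 0.10, in the change from D10 to D15 Vegfc -0.073, in that from D15 to D21 Vegfc -0.32, Pgf -0.49, Flt4 -0.31 and Angpt1 1.37, and in controls Flt1 0.068 (D15) and 0.27 (D21) and Tek 0.029 (D15). That covariate left 0 genes of the whole table called at D21, where it separates the groups. It also separates the EAM and control hearts of D10, and the D10 from the D21 controls. With all 12 controls, D10 Pgf was 0.47, Flt1 0.037 and Angpt1 -0.42. With total counts, the change from D15 to D21 was -0.13 for Vegfc, -0.13 for Pgf, -0.14 for Flt4 and -0.025 for Tek, and Tek in D15 controls 0.0001. Flt4 in the change from D15 to D21 was -0.0022 with DESeq2 and with its size factors and -0.0017 without the filter. With Cdh5 as the endothelial reference, D10 values were 0.13 (Vegfa), 0.16 (Vegfb), 0.0059 (Vegfc), 0.026 (Kdr), 0.19 (Flt4) and 0.11 (Tek), and D21 values 0.14 (Vegfa), 0.047 (Vegfb) and 0.30 (Flt1). With Tnnt2 as the cardiomyocyte reference, Vegfa was -0.048 at D10 and -0.41 at D15, and Vegfb -0.019 at D10. The cause was not tested for the other turns.

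Leaving out 1 heart turned values near 0, which ranged at D10 from -0.27 to 0.019 (Vegfa), -0.22 to 0.0041 (Vegfb), -0.19 to 0.049 (Pgf), -0.20 to 0.0053 (Flt1) and -0.0898 to 0.21 (Angpt1). In the change from D10 to D15 Vegfc ranged from -0.047 to 0.25. In that from D15 to D21 the ranges were -0.057 to 0.18 (Vegfc), -0.14 to 0.17 (Pgf), -0.16 to 0.088 (Flt1), -0.11 to 0.098 (Flt4), -0.0297 to 0.27 (Tek) and -0.46 to 0.15 (Angpt1). In D15 controls they were -0.066 to 0.039 (Tek) and -0.0011 to 0.13 (Angpt2). Relative to endothelial markers they were, at D10, -0.21 to 0.049 (Vegfa), -0.18 to 0.033 (Vegfb), -0.12 to 0.15 (Pgf), -0.099 to 0.10 (Flt1) and -0.019 to 0.26 (Angpt1), and at D15 -0.049 to 0.14 (Flt1). Relative to cardiomyocyte markers, Vegfa ranged from -0.089 to 0.20 (D15) and from -0.19 to 0.0032 (D21). The log2 ratio of Vegfa to Vegfb ranged from -0.089 to 0.031 (D10) and from -0.034 to 0.21 (D21), and that of Pgf to Vegfb at D10 from -0.070 to 0.27.

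Over all genes, D21 gave 630 induced and 177 repressed, but 1356 and 412 with the likelihood ratio test, 1364 and 369 with DESeq2, 80 and 135 with limma-voom, 1420 and 438 at an FDR of 0.05, 719 and 473 without a fold limit, 2 and 13 against a 2-fold change, 1514 and 446 in the fit of all 24 hearts and 1580 and 353 with all 12 controls. D10 gave 0 and 0, but 632 and 49 with all 12 controls and 1 and 0 with the block. D15 gave 2838 and 2019, but 5212 and 4888 without a fold limit and 1972 and 490 against a 2-fold change. The change from D10 to D15 gave 878 higher and 1199 lower, but 1599 and 1653 at an FDR of 0.05 and 1529 and 2733 without a fold limit. That from D15 to D21 gave 447 and 150, but 645 and 251 with the likelihood ratio test, 594 and 251 with DESeq2, 243 and 229 with total counts, 844 and 432 at an FDR of 0.05, 1382 and 598 without a fold limit and 51 and 63 with the block. Both changes gave 0 and 0 against a 2-fold change and with the atrial covariate. In controls, D15 against D10 gave 0 and 11, but 85 and 96 with the likelihood ratio test, 57 and 84 with DESeq2, 23 and 51 without the filter, 55 and 85 at an FDR of 0.05 and 0 and 3 with the block, and 0 and 0 with limma-voom. D21 against D10 gave 93 and 54, but 182 and 112 with the likelihood ratio test, 158 and 98 with DESeq2, 37 and 36 with limma-voom, 128 and 86 without the filter, 206 and 122 at an FDR of 0.05 and 246 and 151 without a fold limit. Both control comparisons gave 0 and 0 against a 2-fold change and with the atrial covariate. The earlier form of the quasi-likelihood test is the one reported, so that alternative gave no value of its own. The newer form added a call of Kdr in the change from D10 to D15 (FDR 0.00981) and left the other member calls as they were. With 4 hearts a group the design limits every exact p to 0.02857, and the low genes Angpt2, Pgf and Vegfc rest on 4955 to 5731 reads over 24 libraries.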
